A study of Mus musculus with 37 samples.

Results

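The 7 genes followed here encode proteins on the surface of fibroblasts and were measured in single mouse cells that had received a pool of transcription factors. They are Thy1, Pdgfra, Pdgfrb, Ly6a, Cd34, Eng and Nt5e. They were chosen by name, as 7 of the 27998 gene rows, and all 7 were detected. Each was described over all cells and then compared between cells with and without a count of 5 of the pooled factors, Myocd, Mef2c, Myod1, Gata6 and Hand2, after cells had been matched on their total counts within a library.

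The cells were mouse embryonic fibroblasts (MEFs, primary connective tissue cells cultured from embryos) of the ICR strain. They had been given 48 factors together by retrovirus and were taken at day 7 for Drop-seq, a droplet method that reads the ends of transcripts cell by cell. All 37 libraries were technical replicates of 1 biological replicate, carried the same pool and included no untreated cells, so p-values measure only the spread between libraries of 1 culture. The libraries labelled technical replicates 4 and 6 shared 59 cell barcodes and were used as 1 library, whereas no other pair shared more than 4. Of a barcode shared between libraries only the deepest copy was kept, and barcodes 1 base from a deeper one of the same library were left out. This left 8565 cells in 36 libraries, with 70 to 548 cells and 637680 to 7921171 counts per library. The median was 8553 counts per cell. A count of a factor may have come from the vector or from the cell's own gene, which cannot be told apart here, and a cell without a count may still have held the factor below the depth reached.

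The markers fall into 4 kinds of surface protein. Pdgfra and Pdgfrb are receptor tyrosine kinases for platelet-derived growth factors, which drive the growth and migration of mesenchymal cells, and Eng (endoglin) is a co-receptor for ligands of the transforming growth factor beta family. Thy1 and Ly6a, the stem cell antigen used to sort mesenchymal progenitors, are anchored in the membrane by a lipid, as is Nt5e, the enzyme that makes adenosine from AMP outside the cell. Cd34 is a heavily glycosylated transmembrane protein known from blood progenitors and endothelium that is also carried by many connective tissue fibroblasts.

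Some genes known from cultured fibroblasts were detected in nearly all cells and others in fewer. Col1a1 and Col1a2, the chains of type I collagen, were each detected in 99.6% of cells, and Acta2, smooth muscle actin, in 99.1%. Dcn, which encodes the matrix proteoglycan decorin, was detected in 51.5%, and the matrix genes Mfap5 and Lum in 34.4% and 26.6%. Some markers of other types were rare: Pecam1 and Cdh5 of endothelium in 0.537% and 0.152% of cells, Ptprc of blood cells in 0.479% and Sox10 of glia in 0.946%. Others of the same lists were found more often, Flt1 of endothelium in 23.8%, Csf1r of macrophages in 15.0% and Cnp of glia in 27.9%. Acta1 of the skeletal muscle list was detected in 28.8% and Krt19 of the mesothelium list in 10.2%.

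Promoter sequence was read for the members whose levels go together or apart in the results below. RefSeq (GRCm38.p6) gave windows of 300 bases, from 250 before to 50 after the start, for Pdgfra, Cd34, Eng and Nt5e. No window was matched for Thy1, Ly6a and Pdgfrb. The 250 bases before the RefSeq start are shown for Pdgfra and Cd34, which were higher in each other's cells. They are also shown for Nt5e, which was lower in cells with Pdgfra. Capitals mark CANNTG, the letters bound by basic helix-loop-helix factors such as Myod1 and Hand2, searched on both strands. The 3 stretches lie at chr5:75152001-75152250, chr1:194938571-194938820 and chr9:88327359-88327608, each on the plus strand. That of Nt5e lies inside the span of the gene given below, which begins at 88327197. The RefSeq start of Nt5e is thus downstream of the start of that span.
Pdgfra: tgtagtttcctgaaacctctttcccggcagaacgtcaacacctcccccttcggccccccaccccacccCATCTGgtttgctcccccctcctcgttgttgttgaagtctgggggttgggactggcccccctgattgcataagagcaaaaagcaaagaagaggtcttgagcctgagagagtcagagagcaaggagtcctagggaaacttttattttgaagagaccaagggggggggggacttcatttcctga
Cd34: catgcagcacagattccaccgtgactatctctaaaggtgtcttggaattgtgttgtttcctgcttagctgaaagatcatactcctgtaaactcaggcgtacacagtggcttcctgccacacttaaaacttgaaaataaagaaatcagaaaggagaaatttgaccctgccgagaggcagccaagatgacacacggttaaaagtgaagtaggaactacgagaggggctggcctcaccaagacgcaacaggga
Nt5e: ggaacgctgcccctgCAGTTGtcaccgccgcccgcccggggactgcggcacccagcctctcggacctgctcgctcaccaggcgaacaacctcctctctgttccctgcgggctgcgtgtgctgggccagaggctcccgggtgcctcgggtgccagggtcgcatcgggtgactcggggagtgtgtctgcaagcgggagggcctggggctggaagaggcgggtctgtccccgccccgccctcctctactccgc

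The windows of Pdgfra and Cd34 were alike in base composition and that of Nt5e was richer in GC. GC content was 51% for Pdgfra and 50% for Cd34, against a median of 52.7% over 32851 promoters, and 71% for Nt5e, whose window held 23 CpG dinucleotides. CANNTG was present in 72.3% of all promoter windows of this length, and it occurred at 2 places for Pdgfra, 1 of them in the stretch shown, 1 for Nt5e, 1 for Eng and none for Cd34. CAGCTG, a form of CANNTG, was in 16.3% of all windows, AGATAA in 11.2%, the CArG box in 1.63% and the MEF2 box in 0.557%. None of these last 4 motifs was found in the 4 windows, which says only that those letters do not occur there.

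In the mouse genome (GRCm38), Thy1 lies at chr9:44043384-44048579 and Nt5e at chr9:88327197-88372092, both on the plus strand. Pdgfra lies at chr5:75152292-75198215, Pdgfrb at chr18:61045150-61085061, Cd34 at chr1:194938819-194961279 and Eng at chr2:32646595-32682669, all on the plus strand, and Ly6a at chr15:74994877-74998031 on the minus strand. The exons of Eng overlap those of Fpgs on the other strand. Fpgs, the enzyme that adds glutamates to folate, had 3280 counts against 4044 for Eng, and since the counting is not stated to use strand, reads of the pair may have been mixed. Pdgfra overlaps Gm42802, which had 10 counts, and Cd34 overlaps Gm16897, whose counts were few beside the 1744 of Cd34.

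Of the membrane-anchored proteins, Thy1 was detected in 61.3% of cells (95% exact binomial interval 60.2% to 62.3%, which covers counting error only). Its level, in counts per 1000000 counts of the library (CPM), was 257 ± 49.9 (SD, n = 36 libraries), with a lowest library at 156, a median of 247 and a highest at 390. Ly6a was detected in 37.7% of cells, at 148 ± 38.5 CPM (lowest 79.6, median 155, highest 224). The 10% of cells richest in Ly6a held 78.5% of its counts, against 60.6% for Thy1 and 47.5% for Pdgfrb. The deepest 10% of cells held 37.0% of all counts. Such a share also rises when few cells have a count. It was 100% for Cd34 and Nt5e, each detected in under 10% of cells, and so could not be lower. For Pdgfra and Eng it was 67.8% and 67.7%, below that of Ly6a, although both were detected in fewer cells than Ly6a. A single cell held up to 203 counts of Ly6a and up to 120 of Thy1. Nt5e was the member detected least, in 7.85% of cells at 10.2 ± 4.50 CPM (lowest 3.18, median 9.56, highest 26.7).

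Among the receptors and Cd34, Pdgfrb was detected in 57.2% of cells at 113 ± 15.2 CPM (lowest 79.2, median 113, highest 151). Its relative spread between libraries was the smallest of the 7 members. Pdgfra was detected in 24.6% of cells at 32.5 ± 8.75 CPM (lowest 11.0, median 31.4, highest 58.3). Eng was detected in 25.2% at 33.6 ± 6.44 CPM (lowest 20.0, median 33.0, highest 49.8), and Cd34 in 9.97% at 14.7 ± 5.01 CPM (lowest 3.94, median 14.1, highest 25.7). Levels are not compared between genes, because transcripts read from one end differ in how well they are captured. The names of the libraries fall into 3 series, and Pdgfra averaged 36.1 CPM in 15 libraries named JD, 27.1 in 15 named PZ47 or PZ48 and 36.9 in 6 named PZ58, ranges that overlapped.

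**Figure D1:**
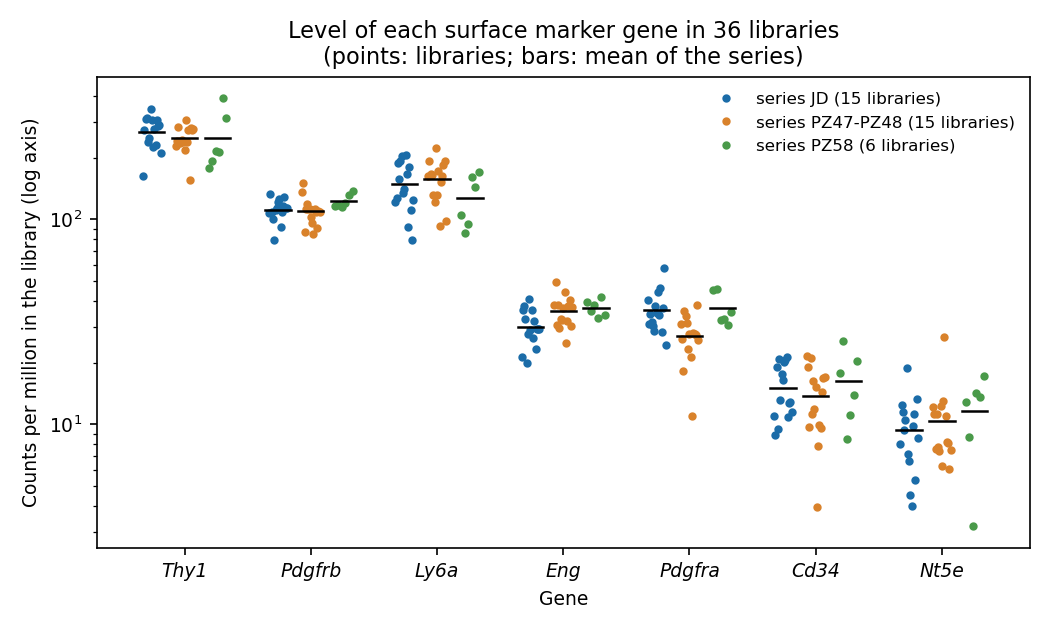
Level of each marker gene in 36 libraries, in CPM on a log axis; each point is a library, colours are the 3 series of library names and bars are series means. The 3 series overlap for every gene, and Nt5e and Cd34 have the lowest points, at 3.18 and 3.94.

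The share of cells with a count depends on depth. When each cell was thinned to 3000 counts, leaving out 386 shallower cells, the shares were 38.2% for Thy1, 27.6% for Pdgfrb, 20.0% for Ly6a, 9.69% for Pdgfra, 8.54% for Eng, 3.66% for Cd34 and 2.48% for Nt5e. All 7 members were found together in 24 cells, whose median total was 53533.5 counts, and 850 cells, with a median total of 5012.5, had none. The commonest number was 2 members, in 2333 cells.

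Counts can also come from free RNA in a droplet. A set of 23 cells with at least 10 macrophage markers was taken because it should hold little of the mesenchymal genes. Col1a1 was still detected in 91.3% of this set, at 2464 CPM against 3967 in the other cells, so the background it gives is not clean. Thy1 was detected in 34.8% of the 23 cells, Pdgfrb in 17.4%, Ly6a in 17.4% and Pdgfra in 8.70%. Their shares in the other cells were higher, 61.3%, 57.3%, 37.8% and 24.7%. Eng, at 30.4%, Cd34, at 21.7%, and Nt5e, at 30.4%, were detected there at or above their shares in the other cells (25.2%, 9.94% and 7.79%). The exact intervals with 23 cells were wide, 13.2% to 52.9% for Eng, 7.46% to 43.7% for Cd34 and 13.2% to 52.9% for Nt5e. Those for Pdgfra (1.07% to 28.0%) and Ly6a (4.95% to 38.8%) also held the shares in the other cells. For these 5 genes the share of cells with a count was therefore not distinguishable from, or lay below, this background. It is not read as the share of cells that express them. The median totals were 6761 counts in the 23 cells and 8581.5 in the others, and macrophages are themselves known to express endoglin. In 37 cells with at least 5 macrophage markers the shares were closer to those of the other cells. Thy1 was detected in 51.4% against 61.3%, Pdgfrb in 43.2% against 57.2%, Ly6a in 37.8% against 37.7% and Pdgfra in 24.3% against 24.6%.

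Cells with a count of a factor were compared with cells without it in the same library whose total counts differed by at most 10%. Counts were summed over the matched cells of each library, and edgeR's quasi-likelihood test was fitted over all genes with the library as a block. A gene is said to have risen or fallen, or to be called, when its Benjamini-Hochberg adjusted p was under 0.05, and log2 fold changes (with/without) are given with their standard error. Cells with Mef2c numbered 2231, with Gata6 2002, with Hand2 910, with Myod1 352 and with Myocd 262. Factors were found together: 56.25% of cells with Myod1 and 40.1% of those with Myocd also had Mef2c, and 45.8% of cells with Myocd had Gata6. No member is among the 48 factors or in a list of markers used to define cells, so none was used to choose the cells compared.

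Myocd is myocardin, a coactivator of serum response factor in heart and smooth muscle. In cells with it Pdgfra fell and no other member was called. Over 252 matched pairs in 33 libraries, the level of Pdgfra was 11.9 ± 11.3 CPM (SD, n = 33; lowest 0, median 8.60, highest 39.8) with Myocd and 33.0 ± 24.0 CPM (lowest 0, median 29.2, highest 107) without. The ranges overlapped, and the level was lower with Myocd in 25 libraries and higher in 7. Pdgfra was detected in 16.7% of cells with Myocd and in 38.9% of the matched cells, and its log2 fold change was -1.83 ± 0.28 (adjusted p = 1.1e-05, edgeR). This was 1 of 7 members called, where 5.22% of all 13379 genes tested were called.

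None of the other 6 members was called in the comparison for Myocd. Over alternatives Ly6a was called in 4 of 16, Cd34 in 3 of 14 and Thy1 in 1 of 16. Cd34 was at 5.24 ± 8.70 CPM with Myocd and 10.3 ± 10.1 without (log2 fold change -1.47 ± 0.51, adjusted p = 0.088, edgeR), and Ly6a at 67.2 ± 75.1 and 144 ± 166.5 (-0.82 ± 0.28, adjusted p = 0.082, edgeR). The values of both overlapped widely between the sets. Log2 fold changes were -0.38 ± 0.15 for Thy1, -0.29 ± 0.19 for Pdgfrb, -0.02 ± 0.22 for Eng and 0.54 ± 0.45 for Nt5e.

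Genes near the members in role also moved in cells with Myocd. Of 30 other fibroblast surface proteins tested, 6 fell and none rose (median log2 fold change -0.32, against 0.00 over all genes). They included Cdh11, a cadherin of mesenchymal cells, at -0.66, and Ly6e, a relative of Ly6a, at -0.52. Of 18 matrix genes 9 fell and 1 rose (median -0.42), with Lum (lumican) at -1.81 and Dcn at -1.07. Among 13 genes of PDGF ligands and signalling only Tns1, a focal adhesion protein, was called (0.50). Of 17 partners and ligands of endoglin, Bmp4 (0.73), Tgfb3 (0.85) and Smad1 (0.54) were among 4 that rose, and Acvrl1, the receptor with which endoglin works in endothelium, fell (-1.43). Entpd1, which acts before Nt5e on extracellular ATP, rose (2.61), as did 1 other of 10 adenosine genes, Adk (0.88). None of 8 relatives and adaptors of Cd34 was called. Of 14 lipid-anchored proteins 2 rose, Cd59a (1.00) and Gpc3 (0.61), and 2 fell, Ly6e and Gpc6 (-0.88). Of 8 pericyte markers Des (1.65) and Mcam (0.92) rose, and none of 7 endothelial markers was called.

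Smooth muscle markers moved with Myocd: 9 of 10 rose, and their summed level was 20067 ± 7455 CPM (9400 to 40454) with Myocd and 11257 ± 4380 CPM (3636 to 23697) without, higher in 29 of 33 libraries. Of 21 skeletal muscle markers tested 10 rose, with sums of 2967 ± 3750 CPM (60.3 to 14553) and 495 ± 764 CPM (39.6 to 3422). The part of these markers in the change of Pdgfra was not tested. Cells holding 5 or more markers of skeletal muscle, mesothelium, glia, macrophages or endothelium were left out as an alternative. Without them the log2 fold change of Pdgfra was -1.99 (adjusted p = 0.0011, edgeR). Smooth muscle markers were not used to leave out cells, so this value does not address their part. Pairs matched also on which of the other 4 factors they held gave -0.997 ± 0.361 (168 pairs, adjusted p = 0.19, edgeR), and cells with none of the other 4 gave -0.64 ± 0.67 (50 pairs). Over all 16 alternatives the value lay between -3.18 and -0.64 and was called in 11. Within series the values were -2.04 in JD, -1.57 in PZ47 and PZ48, and -2.004 in PZ58, of which only that of JD was called.

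Myod1 is the factor that sets the skeletal muscle programme. In cells with Myod1 Pdgfrb and Thy1 fell, 2 of 7 members where 14.5% of 13653 genes tested were called. Over 341 pairs in 34 libraries Pdgfrb was at 67.0 ± 28.0 CPM (SD, n = 34; lowest 18.5, median 63.2, highest 125) with Myod1 and 119 ± 64.4 CPM (lowest 20.8, median 115, highest 353) without. It was lower in 26 of 34 libraries, with a log2 fold change of -0.71 ± 0.14 (adjusted p = 0.00016, edgeR), although the ranges overlapped.

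Thy1 was at 195 ± 275 CPM (lowest 18.9, median 137, highest 1643) with Myod1 and 241 ± 154 CPM (lowest 52.6, median 204, highest 715) without. The highest library, technical replicate 3, stood far above the others, and the log2 ratio of the mean levels was -0.30 with it and -0.68 without it. Thy1 was lower in 25 of 34 libraries and was detected in 48.1% of cells with Myod1 and 74.8% of the matched cells, with a fitted log2 fold change of -0.67 ± 0.18 (adjusted p = 0.0068, edgeR). Without the library block it was -0.49 (adjusted p = 0.17, edgeR). Pdgfra was at 14.8 ± 13.6 CPM with Myod1 and 26.1 ± 20.6 without, a log2 fold change of -0.82 ± 0.31 that was not called (adjusted p = 0.064, edgeR). The values for Ly6a, Cd34, Eng and Nt5e ranged from -0.89 to -0.28 and none was called. Without technical replicate 17, where Nt5e was at 304 CPM with Myod1 and 0 without, the log2 ratio of the mean levels of Nt5e went from 0.16 to -1.39.

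Genes of the other fibroblast lists fell too. Of 29 other surface proteins 16 fell and 1 rose (median -0.50, against -0.02 over all genes), including Cd248, a sialomucin of mesenchymal cells, at -0.99, and Nrp1, a co-receptor for semaphorins and growth factors, at -0.77. Of 18 matrix genes 13 fell and none rose (median -0.57), with Fn1 (fibronectin) at -0.92. Tgfbr3, like endoglin a co-receptor, fell by 1.54 on the log2 scale, while Tgfb2 (0.43) and Tgfbr2 (0.40) were among the 3 of 18 genes of that list that rose. Of 14 lipid-anchored proteins 5 fell, among them Ly6e (-0.62), Cd109 (-0.68) and Bst2 (-0.51), and 1 rose, Gpc1 (0.93). Adora1, an adenosine receptor, rose from 2.11 to 389 CPM (log2 fold change 6.98). Of 9 pericyte markers 4 rose, led by Des at 3.30 and Abcc9 at 3.60; desmin is also a muscle protein. Of 6 endothelial markers tested none was called.

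All 22 skeletal muscle markers rose with Myod1, to a summed level of 15958 ± 9358 CPM (436 to 38486) from 256 ± 298 CPM (51.8 to 1448), higher in 34 of 34 libraries. Without the cells rich in markers of other types, 144 pairs were left, and the log2 fold change was -0.17 for Pdgfrb and -0.51 for Thy1 (adjusted p = 0.99 and 0.76, edgeR). Pairs matched also on the other 4 factors gave -1.13 and -1.16, both called. Over 16 alternatives Pdgfrb lay between -1.13 and -0.17 and was called in 12, and Thy1 lay between -1.35 and -0.49 and was called in 9.

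**Figure D2:**
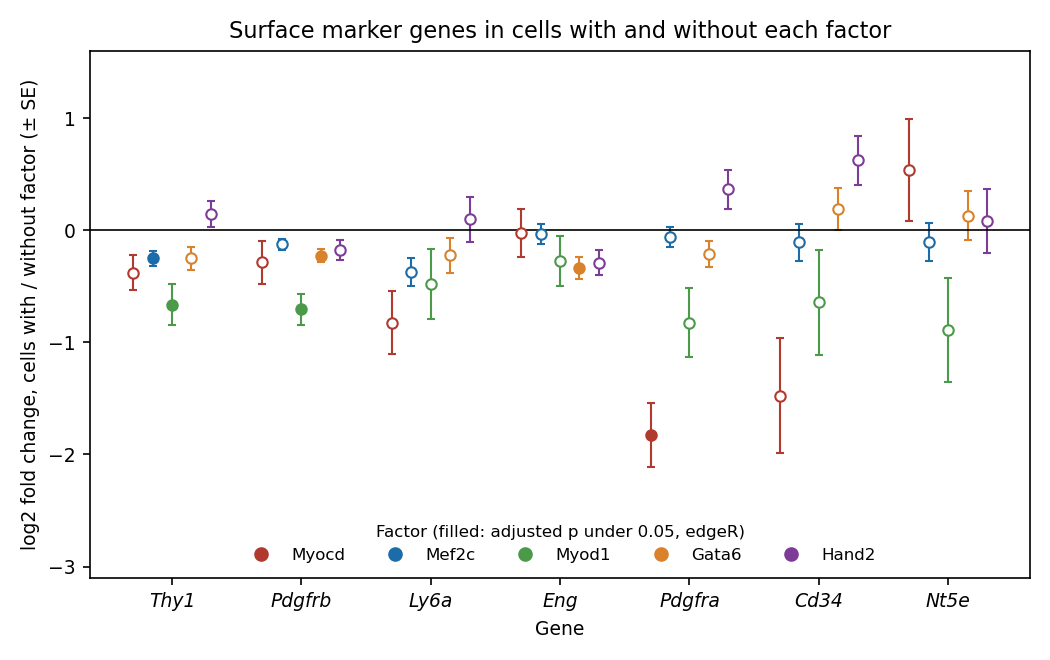
Log2 fold change of each marker between matched cells with and without each of 5 factors; points are edgeR estimates, bars are 1 standard error and filled points had an adjusted p under 0.05. The filled points, all below 0, are Pdgfra with Myocd (-1.83), Pdgfrb and Thy1 with Myod1 (-0.71 and -0.67), Thy1 with Mef2c (-0.25), and Eng and Pdgfrb with Gata6 (-0.34 and -0.23).

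Mef2c is a muscle and heart factor that works beside Myod1 and Myocd. Thy1 was at 241 ± 75.9 CPM (SD, n = 36; lowest 133, median 242, highest 451) in cells with Mef2c and at 280 ± 71.4 CPM (lowest 142, median 286, highest 471) in 2045 matched cells. The ranges nearly coincided, with lower values in 26 of 36 libraries and a log2 fold change of -0.25 ± 0.07 (adjusted p = 0.011, edgeR). Of the 7 members it alone was called, where 7.16% of 16166 genes were. Pdgfra (-0.06 ± 0.09) and Eng (-0.03 ± 0.09) had the narrowest errors among the members near 0, and Ly6a was at -0.37 ± 0.13 (adjusted p = 0.062, edgeR).

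The call for Thy1 with Mef2c was lost without the cells rich in other markers (-0.11, adjusted p = 0.76, edgeR), in pairs matched on the other 4 factors (-0.15) and without the library block (-0.24, adjusted p = 0.15, edgeR). It was made in 9 of 16 alternatives, over which adjusted p from edgeR or DESeq2 ran from 1.2e-07 to 0.92. All 22 skeletal muscle markers rose with Mef2c (3182 ± 2474 CPM, 249 to 12587, against 349 ± 194 CPM, 115 to 886), as did 11 of 15 macrophage markers (182 ± 268 CPM against 37.6 ± 42.4 CPM). Their part in the change of Thy1 was not tested beyond leaving such cells out.

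Around the members, 6 of 30 other surface proteins fell with Mef2c, among them Vcam1 (-0.33) and the hyaluronan receptor Cd44 (-0.21), and 1 rose, the adhesion protein Cadm1 (1.06). Of 18 matrix genes 5 fell and none rose, and the medians of the lists were -0.10 for surface and -0.08 for matrix genes, against 0.00 over all genes. Of 18 genes of the endoglin and TGF-beta list none was called, and of 14 PDGF genes only Pik3r1, the regulatory subunit of PI3-kinase, was called (0.25). Adora1 rose by 5.10 on the log2 scale, 1 of 12 adenosine genes. Of 9 pericyte markers 3 rose, Des (0.61), Heyl (1.07) and Abcc9 (1.10), and none of 10 endothelial markers was called. Cd52, a lipid-anchored protein of blood cells, had 50 counts with Mef2c and 0 without, at least 16.3-fold higher with a floor of 3 counts over the group.

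Gata6 is a zinc finger factor of heart and visceral linings. Eng and Pdgfrb fell in cells with it, 2 of 7 members where 5.2% of 15934 genes were called. Eng was at 28.3 ± 10.6 CPM (SD, n = 36; lowest 9.27, median 27.5, highest 48.2) with Gata6 and at 37.4 ± 10.4 CPM (lowest 16.1, median 37.8, highest 67.4) without. It was lower in 26 of 36 libraries, a log2 fold change of -0.34 ± 0.10 (adjusted p = 0.030, edgeR). Pdgfrb was at 99.8 ± 21.6 CPM (lowest 42.7, median 99.9, highest 154) and 116 ± 21.3 CPM (lowest 77.1, median 109, highest 164.8), lower in 24 of 36 libraries, a log2 fold change of -0.23 ± 0.06 (adjusted p = 0.017, edgeR). Both pairs of ranges overlapped over most of their length.

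Mesothelial markers moved with Gata6: 13 of 14 tested rose, with summed levels of 511 ± 228 CPM (133 to 1147) with and 189 ± 74.9 CPM (109 to 536) without, higher in 33 of 36 libraries. Without the cells rich in markers of other types Eng was at -0.23 (adjusted p = 0.31, edgeR) and Pdgfrb at -0.13 (adjusted p = 0.48, edgeR). In pairs matched on the other 4 factors Eng was no longer called (adjusted p = 0.35, edgeR), and without the deepest 5% of cells it had an adjusted p of 0.091 (edgeR), whereas Pdgfrb stayed called in the matched pairs. Over 16 alternatives Eng lay between -0.52 and -0.20 (7 called) and Pdgfrb between -0.39 and -0.06 (10 called).

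Other surface genes rose and fell in equal number with Gata6. Of 30 tested 4 rose and 4 fell (median -0.05, against 0.00 over all genes). Dpp4, a surface peptidase of fibroblasts and of mesothelium, rose from 1.02 to 8.78 CPM (log2 fold change 3.44) and Vcam1 by 0.56, while Lrrc15, a marker of activated fibroblasts, fell by 0.76. Dcn (1.10) and Lum (0.87) were among 4 of 18 matrix genes that rose. Of 9 relatives and adaptors of Cd34, 3 rose. They were Podxl, a sialomucin of the same family, at 2.03, and the membrane linkers Ezr at 1.08 and Slc9a3r1 at 0.74. Podxl had only 138 counts over all cells, and Ezr is also in the mesothelium list. Bmp4 alone was called among 18 genes of the endoglin list (0.29). Of 9 pericyte markers Rgs5 (1.19) and Des (0.50) rose and Cspg4 (-0.31) fell, and none of 9 endothelial markers was called.

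Hand2 is a basic helix-loop-helix factor of heart and limb. None of the 7 members was called in its 888 pairs, by edgeR or by DESeq2, where 4.47% of 14906 genes were. Unadjusted p was under 0.05 for 4 members by edgeR, Cd34, Eng, Pdgfra and Pdgfrb, and for 3 by DESeq2. Cd34 was at 24.0 ± 17.6 CPM (SD, n = 36; lowest 0, median 19.4, highest 72.9) with Hand2 and at 16.3 ± 16.5 CPM (lowest 0, median 12.5, highest 81.2) without, higher in 25 of 36 libraries with a log2 fold change of 0.62 ± 0.22 (adjusted p = 0.10, edgeR). Eng was at -0.29 ± 0.11, Pdgfrb at -0.18 ± 0.09 and Pdgfra at 0.36 ± 0.18. With the 5% deepest cells left out Cd34 was called (0.74, adjusted p = 0.036, edgeR), and in pairs matched on the other 4 factors Pdgfrb was called (-0.30, adjusted p = 0.045, edgeR). Over 16 alternatives adjusted p from edgeR or DESeq2 ran from 0.0027 to 1 for Cd34 and from 0.045 to 1 for Pdgfrb. Cd34 was called in 2 of the 16, and Pdgfrb, Eng and Thy1 in 1 each.

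Partners of the members moved with Hand2. Among 14 PDGF genes Pdgfrl, a soluble relative of the receptors, rose (0.44) and the ligand gene Pdgfb fell (-2.98). Pdgfb had only 89 counts over all cells, so its value rests on few counts. In the endoglin list Tgfbr2 (0.45) and Tgfbr1 (0.39), the receptors for TGF-beta, rose and Tgfb2 fell (-0.43). Gpc3 (1.05), Lypd1 (1.34), Cd59a (0.68) and Prnp (0.61) rose among 16 lipid-anchored proteins, 1 of which fell. Of 30 other surface proteins 3 rose and 1 fell (median 0.06, against 0.00 over all genes). Among them Pdpn, a mucin-like protein of fibroblasts and mesothelium, rose by 0.56 and Dpp4 by 2.10 on the log2 scale. Of 14 mesothelial markers 9 rose (594 ± 262 CPM, 165.2 to 1228, against 233 ± 123 CPM, 69.2 to 615), and 14 of 22 skeletal muscle markers fell (495 ± 486 CPM against 2112 ± 2366 CPM).

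**Figure D3:**
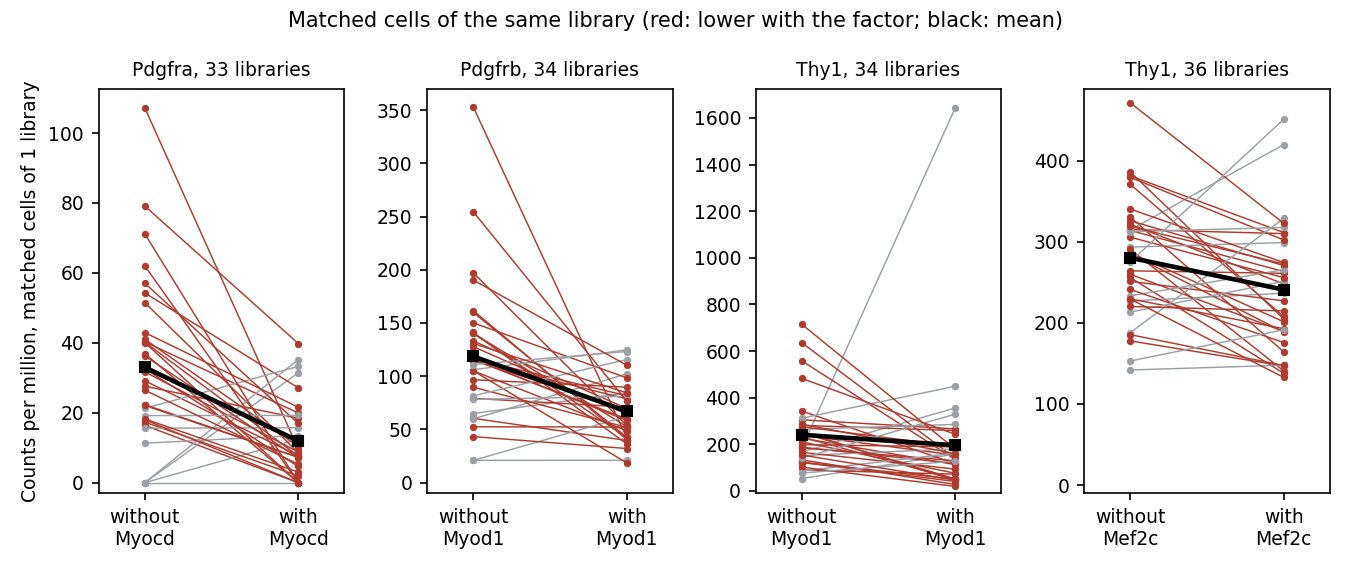
Level of a marker in matched cells with and without a factor, in CPM; each line joins the sets of 1 library, red lines fall, and the black line is the mean. Pdgfra with Myocd has means of 11.9 and 33.0, and technical replicate 3 rises to 1643 for Thy1 with Myod1.

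Levels of both PDGF receptors in the cells of the 5 factors overlapped along their whole order. Pdgfra was lowest in cells with Myocd (11.9 ± 11.3 CPM) and Myod1 (14.8 ± 13.6), then Gata6 (26.4 ± 11.8), Mef2c (31.4 ± 9.23) and Hand2 (34.9 ± 24.6), and no neighbours in this order differed by more than their spread. Pdgfrb ran from 67.0 ± 28.0 in cells with Myod1 over 78.3 ± 45.3 (Myocd), 93.1 ± 30.8 (Hand2) and 99.8 ± 21.6 (Gata6) to 107 ± 21.7 (Mef2c), again with each neighbour within the spread. These sets share cells and differ in depth, so factors were also compared directly. Between cells with Gata6 alone and Mef2c alone, of the 5 factors, no member was called (2.13% of 13868 genes were), nor between cells with Hand2 alone and Gata6 alone (0.198% of 12098). By unadjusted p under 0.05 (edgeR) the counts were 0 and 3, the latter Thy1 (0.36 ± 0.16), Pdgfra (0.66 ± 0.30) and Eng (-0.59 ± 0.27).

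The third direct comparison set cells with Myocd and no Myod1 against cells with Myod1 and no Myocd, in 65 pairs from 15 libraries. Thy1 was at 213 ± 182 CPM (SD, n = 15) in the Myocd cells and 95.4 ± 71.6 CPM in the Myod1 cells. Its log2 fold change of 0.93 ± 0.33 was not called (adjusted p = 0.16, edgeR), but it was called in 2 of 5 alternatives. Pdgfra, at 25.6 ± 24.8 and 18.8 ± 30.5 CPM, had a log2 fold change of 0.49 ± 0.70, and between -0.56 and 0.49 over 4 alternatives. The change of Pdgfra with Myocd was therefore not shown to differ from that with Myod1, which was not called. No member was called, against 2.41% of 10136 genes, and Thy1 alone had an unadjusted p under 0.05 (edgeR). Cd34 had 5 counts in each set and was not tested.

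The members were then set against one another: cells with a count of a member were matched with cells without it, and the other 6 were tested. Each pair of genes is tested in both directions on overlapping cells, so the 2 results are not independent. Thy1, Pdgfra, Ly6a and Cd34 rose in one another's cells in 10 of 12 directions. The exceptions were Thy1 in cells with Cd34 (298 ± 110 CPM against 292 ± 136) and Ly6a in cells with Pdgfra (log2 fold change 0.34 ± 0.14, adjusted p = 0.077, edgeR). Nt5e fell in cells with Thy1 or Pdgfra, and Pdgfrb and Ly6a rose in cells with Eng.

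Pdgfra and Cd34 rose in both directions. Cd34 was at 20.9 ± 12.5 CPM (SD, n = 36; lowest 0, median 19.2, highest 67.1) in cells with Pdgfra and at 9.31 ± 5.13 CPM (lowest 0, median 9.67, highest 19.5) in those without, higher in 29 of 36 libraries (log2 fold change 1.01 ± 0.17, adjusted p = 1.6e-05, edgeR). Pdgfra was at 45.5 ± 18.3 CPM (lowest 0, median 45.7, highest 108) in cells with Cd34 and at 26.7 ± 12.6 CPM (lowest 0, median 24.1, highest 59.8) without, higher in 28 of 36 (0.79 ± 0.12, adjusted p = 1.3e-05, edgeR). The highest libraries of the cells with the partner lay above all libraries of the cells without it in both directions. These 2 genes were detected together in 345 cells.

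Ly6a and Cd34 also went together. Ly6a was at 290 ± 205 CPM (lowest 35.9, median 240, highest 888) in cells with Cd34 and at 116 ± 65.5 CPM (lowest 26.7, median 95.7, highest 286) in matched cells (log2 fold change 1.14 ± 0.18, adjusted p = 4.9e-05, edgeR), higher in 27 of 36 libraries. Cd34 was at 20.9 ± 11.4 CPM with Ly6a and 10.5 ± 7.67 CPM without (1.06 ± 0.15, adjusted p = 2.2e-06, edgeR), higher in 30 of 36. Both ran over a wide range between libraries, which overlapped. In the 5 alternatives run for each of these 4 tests among Pdgfra, Ly6a and Cd34, each value stayed called.

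With Thy1, Cd34 (0.70 ± 0.18), Ly6a (0.53 ± 0.13) and Pdgfra (0.47 ± 0.08) rose and Nt5e fell (-0.89 ± 0.16), 4 of 6 members where 13.4% of 15833 genes were called. Nt5e was at 8.07 ± 5.02 CPM (lowest 1.32, median 7.64, highest 23.2) with Thy1 and at 16.5 ± 12.6 CPM (lowest 2.40, median 12.5, highest 68.4) without, lower in 28 of 36 libraries (adjusted p = 2.7e-05, edgeR). In the opposite direction, Thy1 was at 224 ± 132 CPM with Nt5e and 269 ± 134 CPM without, a log2 fold change of -0.21 ± 0.17 that was not called. Without cells rich in other markers the rises of Cd34 and Ly6a with Thy1 were no longer called (0.47 and 0.37, adjusted p = 0.11 and 0.060, edgeR).

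With Pdgfra, Thy1 (0.42 ± 0.09) and Cd34 rose and Nt5e fell (-0.57 ± 0.19, adjusted p = 0.029, edgeR), 3 of 6 where 16.6% of 15977 genes were called. With Ly6a, Cd34, Pdgfra (0.51 ± 0.10) and Thy1 (0.42 ± 0.08) rose, 3 of 6 where 9.11% of 16287 were. With Cd34, Ly6a and Pdgfra rose, 2 of 6 where 2.97% of 14903 were. When matching had no limit on the difference in totals, the fall of Nt5e with Pdgfra (-0.50, adjusted p = 0.065, edgeR) and the rise of Pdgfra with Ly6a (0.25, adjusted p = 0.12, edgeR) were not called.

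Cells with Pdgfrb gave other calls than cells with Pdgfra, a difference that was not itself tested. In cells with Pdgfrb, Cd34 fell, to 12.6 ± 6.33 CPM from 20.4 ± 15.0 CPM (log2 fold change -0.62 ± 0.15, adjusted p = 0.0018, edgeR; lower in 24 of 36 libraries), and Eng rose (0.31 ± 0.10, adjusted p = 0.032, edgeR), 2 of 6 where 13.1% of 15818 genes were called. Pdgfra itself was at 36.5 ± 14.1 and 33.7 ± 15.7 CPM (0.16 ± 0.11, not called), although the 2 receptors were found together in 1440 cells. With Eng, Pdgfrb (0.31 ± 0.06) and Ly6a (0.57 ± 0.13) rose, 2 of 6 where 1.33% of 16015 were called. With Nt5e none of 6 was called by edgeR, nor had an unadjusted p under 0.05, where 0.687% of 14695 genes were called. The rise of Eng with Pdgfrb lost its call without the library block (adjusted p = 0.097, edgeR) and without cells rich in other markers (adjusted p = 0.40, edgeR).

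**Figure D4:**
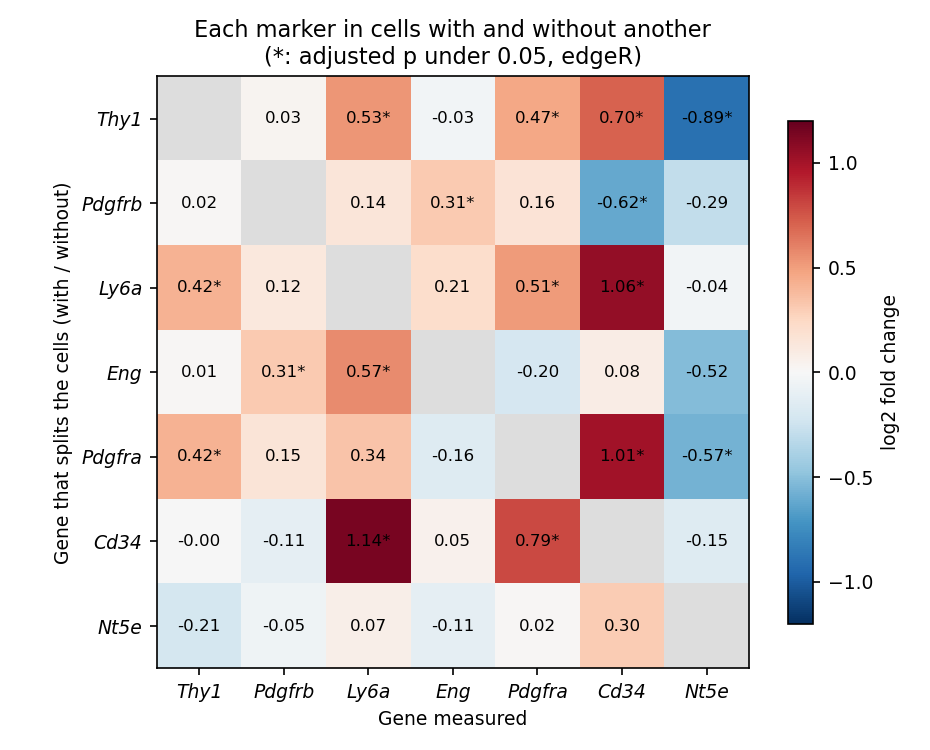
Log2 fold change of the marker on the x axis between matched cells with and without the marker on the y axis; asterisks mark an adjusted p under 0.05 by edgeR and grey squares were not tested. The largest values are those of Ly6a with Cd34 (1.14), Cd34 with Ly6a (1.06) and Cd34 with Pdgfra (1.01), and the lowest is that of Nt5e with Thy1 (-0.89).

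Muscle markers moved with these sets. The summed level of skeletal muscle markers was 626 ± 608 CPM with and 3164 ± 2353 CPM without Thy1, 354 ± 456 and 1881 ± 1788 CPM for Pdgfra, 423 ± 351 and 3277 ± 2275 CPM for Pdgfrb, and 477 ± 535 and 2179 ± 1707 CPM for Ly6a, and 20 to 22 of the 22 fell in each. Smooth muscle markers differed between members: they summed to 9788 ± 1569 CPM (7027 to 13699) with and 14029 ± 2562 CPM (9289 to 21079) without Pdgfra, lower in all 36 libraries, with 10 of 10 called, while 8 of 10 rose with Thy1 (12491 ± 1661 against 10018 ± 1849 CPM). They fell for 9 of 10 with Ly6a and with Cd34. The part of these markers in the pairs of members was not tested beyond leaving out cells rich in markers. Smooth muscle markers were not used for that.

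The genes most like each member were taken as the 5 called genes with the highest log2 fold change between its matched cells over 36 libraries. For Thy1 they included Lrrc15 (1.65, higher in 36 of 36 libraries), Pappa2 (1.61), Dkk2 (1.53) and Mmp9 (1.51); Dkk2 encodes a secreted regulator of Wnt signalling. For Pdgfra they were Mmp3 (1.95), Tac1 (1.69), Clec1a (1.58), Gm16277 (1.43) and Gfra1 (1.34), the last a receptor for a neurotrophic ligand. For Pdgfrb they were Mmp3 (1.47), Mmp13 (1.34), Ccn5 (1.26, higher in 35 of 36), Il1rn (1.22) and Clec14a (1.22). Mmp3 and Mmp13 encode secreted matrix-degrading enzymes, and 42.1% of the counts of Mmp3 in the set of Pdgfrb came from technical replicate 14.

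For Ly6a the first gene was its neighbour in the gene family, Ly6c1, at 50.8 ± 21.6 CPM with Ly6a and 5.71 ± 2.54 CPM without (log2 fold change 3.22, higher in 36 of 36 libraries). Reads of near-identical members of the Ly6 family may have been divided uncertainly between them. Vip (2.34), Gm10719 (1.71), Krt8 (1.53) and Apod (1.48) followed. For Cd34 the genes were Saa3 (3.72), Sfrp2 (1.58), Gm26771 (1.52), Dlk1 (1.46) and Aqp5 (1.25). Of these Dlk1, a surface protein of progenitors, was at 565 ± 705 CPM with Cd34 and 200 ± 173 CPM without and was higher in 35 of 36 libraries. By contrast, 54.5% of the counts of Saa3 came from technical replicate 23, and 46.7% and 46.5% of those of Sfrp2 and Gm26771 from technical replicate 11.

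For Eng they were Cyp26b1 (1.40), an enzyme that clears retinoic acid, Col9a3 (0.88), Fpgs (0.88), Msx2 (0.74) and Gdf15 (0.74). Fpgs is the gene whose exons overlap Eng, so its place in this list cannot be told apart from shared reads. For Nt5e they were Ndnf (2.16), Fgl2 (1.85), Gjb2 (1.81), Col2a1 (1.67) and Myct1 (1.61). Ndnf, a secreted protein, was at 112 ± 125 CPM with Nt5e and 18.3 ± 12.1 CPM without, higher in 30 of 36 libraries.

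At the other end, a muscle gene was among the 3 genes lowest with each of the 7 members. Sln (-4.27), a regulator of the muscle calcium pump, Art1 (-3.49) and Smim5 (-3.30) were lowest with Thy1. Myh3, embryonic myosin, was among the lowest with Pdgfra (-3.11), Cd34 (-2.96) and Nt5e (-3.05), and Mylpf (-2.82) was with Ly6a, Csrp3 (-3.26) with Eng. With Pdgfrb, the complement genes of macrophages C1qc (-5.38) and C1qa (-4.79) were lowest, followed by Ankrd2 (-4.41). Some of the lowest values rested on 1 library: Hsd3b1 had 0 counts in cells with Pdgfra and 293 without, at least 99.3-fold lower with a floor of 3 counts over the group, and 90.8% of those counts were in technical replicate 3. Likewise 62.2% of the counts of Klk1b26, at -3.69 with Eng, were in the library of technical replicates 4 and 6.

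Cells rich in markers of another type gave a comparison that used no factor. Cells with at least 5 of the 22 skeletal muscle markers were matched with cells holding at most 1, in 443 pairs over 36 libraries. All members but Nt5e fell, 6 of 7 where 20.8% of 13777 genes were called, and 8.99% fell. Ly6a was at 73.4 ± 81.6 CPM (SD, n = 36; lowest 0, median 46.6, highest 383) in the marker-rich cells and at 173 ± 159 CPM (lowest 0, median 124, highest 642) in the others, a log2 fold change of -1.07 ± 0.21 (adjusted p = 8.7e-05, edgeR). Thy1 was at 153 ± 121 CPM (lowest 0, median 125, highest 535) and 270 ± 139 CPM (lowest 0, median 296, highest 557), lower in 27 of 36 libraries (-0.84 ± 0.17, adjusted p = 0.00012, edgeR). The sets overlapped in every case.

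The remaining log2 fold changes in the skeletal muscle comparison were -1.15 ± 0.35 for Cd34, -0.70 ± 0.19 for Pdgfra, -0.67 ± 0.14 for Pdgfrb and -0.63 ± 0.20 for Eng, and 0.75 ± 0.38 for Nt5e (adjusted p = 0.17, edgeR). With at least 10 markers Thy1 was at -2.36, Pdgfrb at -2.37, Pdgfra at -2.17, Ly6a at -1.87 and Cd34 at -2.98, all called. Eng was at -1.07 (adjusted p = 0.093, edgeR), and without a limit on the difference in totals it was at -0.44 (adjusted p = 0.078, edgeR). Of 10 smooth muscle markers 5 rose in the marker-rich cells.

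Mesothelial cells line the body cavities. In 252 pairs over 30 libraries, cells with at least 5 of 15 mesothelial markers had less Pdgfrb and Eng and more Cd34, 3 of 7 members where 7.7% of 12617 genes were called. Pdgfrb was at 43.6 ± 39.1 CPM (SD, n = 30; lowest 0, median 39.7, highest 158) against 142 ± 73.5 CPM (lowest 24.8, median 136, highest 353), lower in 28 of 30 libraries (log2 fold change -1.43 ± 0.21, adjusted p = 9.0e-07, edgeR). Cd34 was at 31.4 ± 28.0 CPM (lowest 0, median 24.7, highest 126) against 7.78 ± 14.9 CPM (lowest 0, median 0, highest 65.1), higher in 24 of 30 (1.83 ± 0.41, adjusted p = 0.0012, edgeR). Over 4 alternatives these values stayed called.

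Eng was at 20.2 ± 20.2 CPM in the mesothelial-marker cells and 45.5 ± 29.7 CPM in the others (-0.91 ± 0.24, adjusted p = 0.0080, edgeR), and at -0.44 (adjusted p = 0.34, edgeR) without a limit on the difference in totals. Thy1 (-0.31 ± 0.15), Pdgfra (-0.45 ± 0.36), Ly6a (0.20 ± 0.28) and Nt5e (-0.20 ± 0.49) were not called. The summed level of mesothelial markers, which chose the cells, was 3637 ± 1793 CPM against 86.4 ± 51.8 CPM. Of 11 macrophage markers tested 6 fell in the mesothelial-marker cells and none rose.

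**Figure D5:**
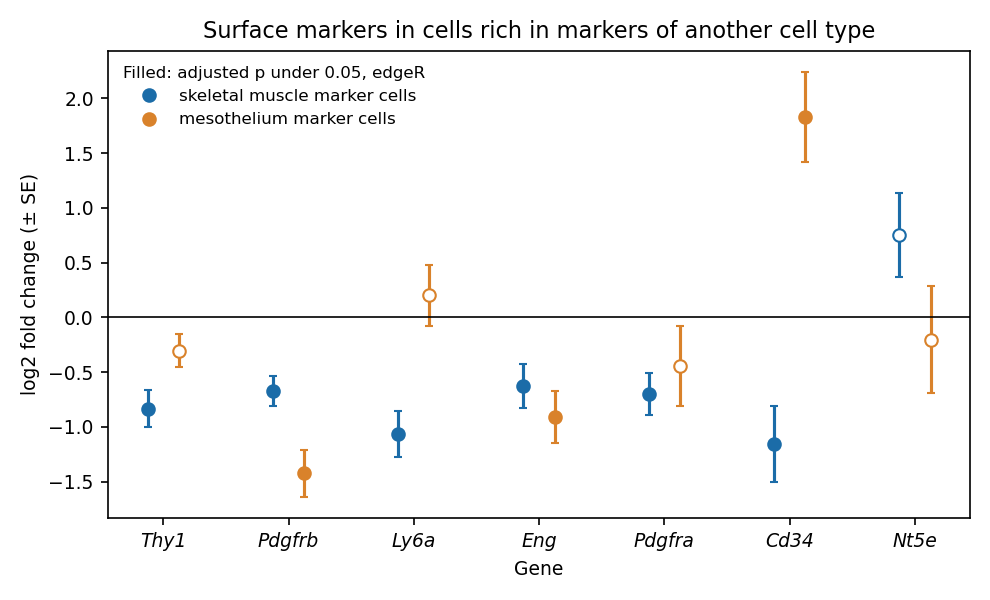
Log2 fold change of each marker gene in cells with at least 5 skeletal muscle or mesothelial markers against matched cells with at most 1; bars are 1 standard error and filled points had an adjusted p under 0.05 by edgeR. Pdgfrb is below 0 in both (-0.67 and -1.43), and Cd34 is at -1.15 in the first and 1.83 in the second.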

How the data were processed

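The deposited files hold raw counts per gene and cell, 1 table per library, made by the authors; the submitters' processing notes name bcl2fastq 2.17.1.14, STAR 2.5.3a, UMI-tools, featureCounts 1.5.3 and the mm10 build. Strand use and annotation are not given in the sources used here. Of 27999 rows, 27998 were Ensembl genes, of which 27645 matched a symbol; the row for EGFP was 0 throughout. Of 8730 barcodes, 89 shallower copies of shared barcodes and 76 that were 1 base from a deeper barcode of the same library were left out. The lowest total of the 8730 barcodes was 1541 counts. No doublet caller was run; cells deepest in counts were left out as an alternative.

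Counts of matched cells (totals within 10%, deepest first, at least 3 cells per library and set) were summed per library and tested with edgeR 4.0.16 (TMM scaling, genes with at least 20 counts) in R 4.3.3; DESeq2 1.42.0 was an alternative. Matching and plots used Python 3.11.15, numpy 2.4.6, scipy 1.17.1, pandas 2.3.3 and matplotlib 3.10.9. The members, factors and gene lists were chosen with earlier results of these data known. Named were the 7 members throughout, up to 4 called genes per list with the smallest adjusted p, and, per member, the 5 highest and 3 lowest called log2 fold changes with at least 200 counts. Of the genes this rule names, 1 is not reported here. Tested on simulated data for the comparison of cells with and without Myocd (13206 genes), the fit found 98 of 100 changes of 4-fold and 27 of 100 of 2-fold, with 1 false call. The changed genes had at least 200 counts and all genes shared the same dispersion, so the rates do not cover genes with fewer counts.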

Additional observations from a re-analysis of the deposited data

How the results depend on the processing

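Across 912 alternative values for the members, 831 kept their side of the threshold, 47 lost a call and 34 gained one. These include values of members that were not called at first, so they do not give how often a call was kept. With the factors, calls were kept less often. Of 16 alternatives each, Pdgfra with Myocd was called in 11, and Pdgfrb and Thy1 with Myod1 in 12 and 9. Thy1 with Mef2c was called in 9, and Eng and Pdgfrb with Gata6 in 7 and 10. None that was called changed sign, whereas values that were not called could. Nt5e with Hand2, for example, was at 0.08 and ran from -0.40 to 0.76 over 16 alternatives. Under RLE scaling all 111 kept their side; under DESeq2 34 of 35 did, and Ly6a with Myocd gained a call (-0.95, adjusted p = 0.046, DESeq2). No filter on low counts gained 14 calls and lost none. The number of genes called moved more. For Myocd, 699 genes became 132 with at least 2 counts of the factor and 2 with none of the other 4 factors. They became 192 without cells rich in other markers, 394 without the deepest 5% of cells and 204 in pairs matched on the other factors. Within series JD, PZ47-PZ48 and PZ58 they became 187, 123 and 49. In libraries with Rps27a above or below 100 CPM, here the high and low class, they became 176 and 403. The labels do not name this split, and the high class includes all libraries of PZ58. For Mef2c, 1158 became 238 with none of the other 4 factors, 38 without marker-rich cells, 372 in factor-matched pairs, 488, 333 and 111 in the 3 series and 210 in the high class. For Myod1, 1973 became 22, 30, 1269, 942, 696, 196 and 393 in the same order. For Gata6, 828 became 531 without the replicate block, 432 with none of the other 4 factors, 495 without marker-rich cells, 190, 177 and 44 within series, 150 in high-class libraries and 404 in low-class ones. For Hand2, 667 became 73 with none of the other 4, 371 in factor-matched pairs, 150, 154 and 54 within series, 150 in high-class libraries and 344 in low-class ones. These subsets hold fewer cells. Between Hand2 alone and Gata6 alone, 24 became 85 with no filter and 51 without the replicate block, and between Myocd and Myod1, 244 became 1340 with no limit on totals and 6 without marker-rich cells. Without marker-rich cells, the sets of Thy1 went from 2120 to 1073, Pdgfrb from 2080 to 657, Ly6a from 1484 to 840, Eng from 213 to 19 and Nt5e to 59. With no filter, Cd34 went from 442 to 792, Eng to 529 and Nt5e to 392; Eng gave 388 with no limit on totals and Nt5e 209 without the replicate block. For these the cause was not tested.

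The replicate block is the library, since both sets come from the same one; without it 107 of 111 member values kept their side, and the 3 lost calls (Thy1 with Mef2c and Myod1, Eng with Pdgfrb) stand in the report, while Ly6a with Myocd gained one (-0.99, adjusted p = 0.046, edgeR). Leaving out single libraries was done on the ratio of mean levels. Cells with Myocd alone against Myod1 alone gave 3 pairs in 1 library, and cells with 10 or more mesothelial or 5 or more glial markers gave under 50 pairs, so these tests were not run. Whole-library levels of the members were searched for a library far from the others, among the 6 libraries of PZ58 and the 10 of the high class. None was found in these 14 groups. The series of 15 libraries and the levels in matched cells were not searched this way. Depth limits the low members: Cd34 and Nt5e had 1744 and 1167 counts in all.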

Other observations

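Some of the surface genes had other levels in cells rich in glial markers. Cells with at least 5 of 13 glial markers gave 49 matched pairs in 11 libraries, too few for the test across genes, so only values are given. Ly6a was at 546 ± 634 CPM (SD, n = 11; lowest 39.7, median 252, highest 1833) in these cells and at 112 ± 108 CPM (lowest 0, median 83.2, highest 376) in matched cells with at most 1 glial marker, higher in 9 of 11 libraries. Thy1 was at 66.6 ± 92.3 CPM (lowest 0, median 27.6, highest 275) and 259 ± 179 CPM (lowest 62.9, median 229, highest 559), lower in 10 of 11. Pdgfrb was detected in 30.6% of the glial-marker cells and 63.3% of the others, and Eng was at 45.2 ± 27.3 and 26.2 ± 15.8 CPM. Smooth muscle markers summed to 5082 ± 1997 CPM in the glial-marker cells and 13071 ± 5520 CPM in the others, lower in 11 of 11 libraries. Over all 92 glial-marker cells, without matching, Pdgfra was detected in 20.7%, Cd34 in 9.78% and Nt5e in 9.78%. In all other cells these shares were 24.7%, 9.97% and 7.82%.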
